A study of Mus musculus with 10 samples.

Results

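The genes described here are those whose RNA moved the same way in every serum-free culture of mouse embryonic stem cells. In the 10 RNA-seq libraries of the study, a gene was kept when all 8 serum-free values of log2(TPM + 1) lay on the same side of both serum values and each of the 4 serum-free means was at least 1 away from the serum mean. TPM is a level scaled to gene length and to the library total. The rule kept 626 of 20494 lines of the deposited table, 231 higher (1.13%) and 395 lower (1.93%) than in serum. Symbols stand beside their own values in the upper part of the table only, so genes are named from there, where 128 were higher (1.3%) and 208 lower (2.11%), 336 in all. All 626 passed the filter for the tests, 1 TPM in at least 2 libraries. The members were chosen by these same values, so their differences from serum are descriptions without a test. Differences among the serum-free media were not a criterion of the rule and were tested, although the rule read the same serum-free values and so the 2 are not wholly independent.

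Per the labels, 2 libraries came from each of 5 culture conditions of an embryonic stem cell line of strain C57BL6X129S6F1. All had 1000 IU mLIF (the cytokine LIF, which keeps these cells undifferentiated). SL was KO-DMEM medium with 15% FBS, fetal serum, and feeder cells. The other 4 were serum-free N2B27 medium with 3 µM Chir99021, which inhibits GSK3. Beyond that, 2iL contained the MEK inhibitor PD0325901 at 1 µM, A2iL the Src inhibitor CGP77675 at 1.5 µM, and LCDM 2 agents that the labels abbreviate to Dim and Mih, at 2 µM each, all 3 with feeder. 2iL-F had the additions of 2iL and no feeder. Every serum-free culture thus differed from SL in the serum, the basal medium and Chir99021 at once, and these cannot be told apart. One cell line was used, and nothing in the labels says that the 2 libraries of a medium were separate cultures, so a p-value measures spread between libraries that may be technical repeats. TPM keep no read number, so depth is unknown.

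Mouse embryonic stem cells in serum hold a mixture of states, some cells near the naive state of the early epiblast and others expressing genes of the later, primed epiblast. GSK3 inhibition stabilises beta-catenin and relieves repression by Tcf7l1, and MEK inhibition blocks the ERK signal that drives exit from the naive state. Serum carries growth factors, lipids and attachment proteins, and is known for activating serum response factor (SRF) and YAP, transcription regulators that raise genes of the actin cytoskeleton and of adhesion.

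The 2 libraries of a medium correlated at a Pearson r of 0.9925 to 0.9939 across genes, and 99.4% to 100% of the named members lay within 1.5-fold between them. Stem cell markers were present throughout: the summed TPM of 6 measured markers (Nanog, Pou5f1, Esrrb, Tdgf1, Fbxo15, Sall4) was 1725 to 1793 in SL, 2812 to 3014 in 2iL, 2008 to 2009 in A2iL, 2758 to 2797 in LCDM and 2596 to 2619 in 2iL-F. Fibroblast markers went against the feeder labels. The sum of 36 measured fibroblast markers was 6637 to 6946 in SL, 1028 to 1085 in the libraries labelled 2iL, 4145 to 4205 in A2iL, 1329 to 1335 in LCDM and 5272 to 5488 in the libraries labelled 2iL-F. In both libraries labelled 2iL, 9 of the 36 were at 0 (Dcn, Postn, Lox, Bgn, Ccl2, Fap, Dpt, Mgp, Acta2) and 25 were under 1 TPM. Here 2iL and 2iL-F stand for the libraries so labelled. Exchanging the pair of labels would change neither the choice of members nor any comparison of the MEK inhibitor media with the other 2. In such bulk RNA, fewer cells of a type and less RNA per cell cannot be told apart.

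The members were spread over both modest and large differences. For each gene the smallest of its 4 differences from SL on the log2(TPM + 1) scale gives the change that every medium reached. Its median was 1.38 over the 128 higher genes and -1.36 over the 208 lower ones. It reached 2 or more in size for 15 higher and 40 lower genes. The higher genes had low levels in serum, with SL quartiles of 1.93, 6.31 and 17.4 TPM, and 1 of them was at 0 in a library. The lower genes had SL quartiles of 5.68, 16.1 and 45.8 TPM, 52 of them were at 0 in at least 1 library, 31 were at 0 in both 2iL libraries and 42 were under 1 TPM in all 8 serum-free libraries. Of the named members, 126 higher and 205 lower ones were annotated as protein coding.

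**Figure D1:**
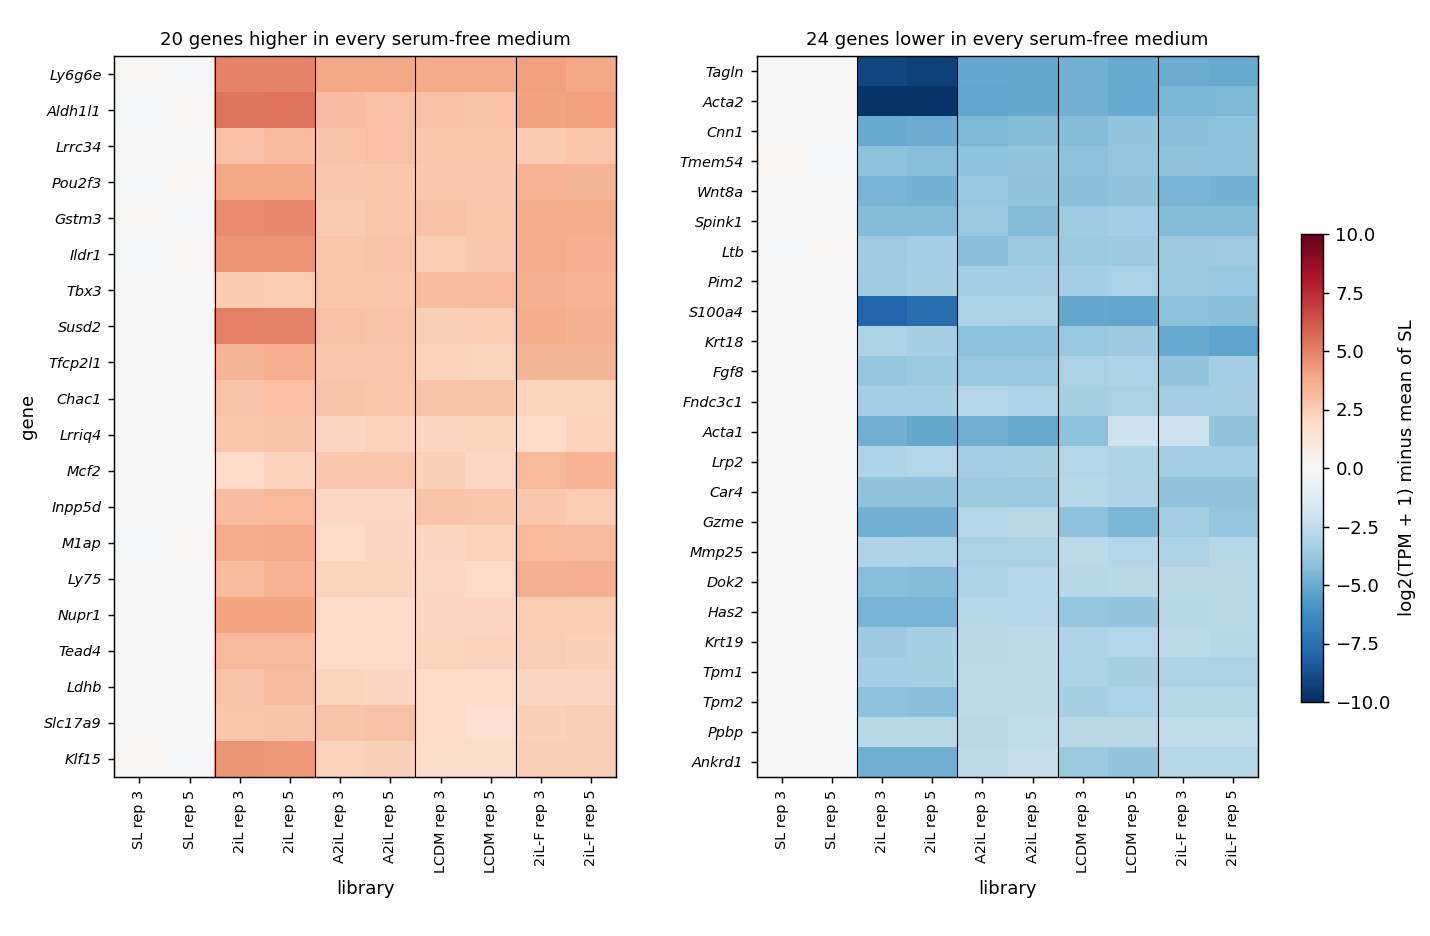
Each row is a gene, each column a library, and colour is log2(TPM + 1) minus the mean of the 2 SL libraries (red higher, blue lower). Shown are 20 higher and 24 lower genes among those with the largest change reached in every medium, led by Ly6g6e (3.82) and Tagln (-4.90), and the deepest blue lies in the 2 libraries labelled 2iL.

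To describe the named members they were sorted by known role, after their values were seen. Regulators linked to pluripotency were 8 of the higher genes. Tbx3, a T-box factor of the naive network (chr5:119670669-119684724 of mm10), had 8.04 and 8.80 TPM in SL, 56.0 and 54.8 in 2iL, 108 and 102 in 2iL-F, 81.8 and 85.9 in LCDM and 62.8 and 62.03 in A2iL. Tfcp2l1, another naive factor (chr1:118627945-118685168), had 18.4 and 18.4 TPM in SL, 201 and 239 in 2iL, 202 and 203 in 2iL-F, 93.7 and 88.4 in LCDM and 124 and 122 in A2iL. For both genes all 8 serum-free libraries stood far above SL, but the media were ranked differently: Tbx3 was highest in 2iL-F and lowest in 2iL, while Tfcp2l1 was lowest in LCDM. Esrrb, an orphan nuclear receptor that binds with the core pluripotency factors, had 66.5 and 72.6 TPM in SL, 274 and 288 in 2iL, 259 and 256 in 2iL-F, 266 and 265 in LCDM and 235 and 227 in A2iL. Its means in the serum-free media spanned 0.28 on the log2 scale, the smallest span after that of Fbln1 among the higher genes with at least 5 TPM in some medium. Nr5a2, a related nuclear receptor, had 8.5001 and 8.23 TPM in SL and 21.5 to 34.2 in the serum-free libraries. Tfap2c, an AP-2 factor of germline and trophoblast, had 23.3 and 23.8 TPM in SL and 58.6 to 123 in the serum-free libraries. The stem cell factor receptor Kit, the adhesion protein Pecam1 and the F-box protein Fbxo15, a classical stem cell reporter gene, completed the group. Kit had 5.53 and 5.49 TPM in SL, 53.7 and 66.4 in 2iL, 62.8 and 63.8 in 2iL-F, 39.4 and 34.4 in LCDM and 17.99 and 18.2 in A2iL, lowest of the serum-free media in A2iL.

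Of the naive pluripotency list, 14 genes were tested and the mean of the serum-free media was higher than SL for 12 and lower for 2, with a median of 1.37 on the log2 scale against -0.05 over all named genes tested. That contrast was called for 71.5% of all genes tested, and for 33.7% of named genes upward and 40.7% downward; 45.5% of all calls were upward, against 50.4% with median-of-ratios scaling and 51.6% with quantile normalisation. Counts for this and later lists include the members and rest on the serum contrast that the rule used, so they are descriptions. The lists were chosen with earlier results of these data known. The shared rule was met in either direction by 4.2% of named genes tested. In the naive list 6 of the 14 met the shared rule (Esrrb, Tfcp2l1, Tbx3, Nr5a2, Pecam1, Fbxo15). The primed and formative list went the other way, with 3 of 11 higher and 8 lower, a median of -2.32, and 7 members among the shared lower genes.

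Genes of amino acid supply and of the ATF4 stress response formed a second group of 7 higher genes. ATF4 is a transcription factor made when amino acids run short or proteins misfold, and it binds TGATGNAA elements together with C/EBP proteins. Chac1, which degrades glutathione (chr2:119351229-119354381), had 7.01 and 6.87 TPM in SL, 56.0 and 62.7 in 2iL, 36.1 and 36.2 in 2iL-F, 56.7 and 56.7 in LCDM and 57.8 and 52.9 in A2iL. Its levels in 2iL, A2iL and LCDM overlapped, and those in 2iL-F were lower (2iL-F minus 2iL, -0.70 ± 0.065 (SE, adjusted p = 2.6e-05)). Asns, asparagine synthetase, had 131 and 133 TPM in SL, 731 and 819 in 2iL, 546 and 551 in 2iL-F, 378 and 368 in LCDM and 438 and 434 in A2iL. Trib3, a pseudokinase induced by ATF4, had 15.7 and 15.6 TPM in SL and 55.2 to 116 in the serum-free libraries, and Nupr1, a small stress-induced chromatin protein, had 7.74 and 6.92 TPM in SL, 128 and 126 in 2iL, 46.5 and 47.3 in 2iL-F, 36.0 and 35.8 in LCDM and 32.8 and 30.8 in A2iL. Pycr1, of proline synthesis, had 11.9 and 11.04 TPM in SL and 27.8 to 84.8 in the serum-free libraries. Gcat, of threonine and glycine breakdown, and Slc1a5, a glutamine transporter, had 31.8 and 33.9 TPM in SL and 74.97 to 142 in the serum-free libraries and 47.6 and 49.8 TPM in SL and 121 to 239 in the serum-free libraries. All 7 were highest in the libraries labelled 2iL, and all 7 were lower in 2iL-F than in 2iL by the limma contrast. Both traits were common in the whole higher set. Of its 128 genes, 64.8% were highest in 2iL, against 31.6% of named genes tested. Lower in 2iL-F than in 2iL were 62.5%, against 34.9%. Of the fixed ATF4 and amino acid list, 23 of 26 tested genes were higher and 2 lower in the serum-free mean, with a median of 0.81, and 5 met the shared rule.

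Promoter sequence was at hand in RefSeq (GRCm38.p6, 250 bases before to 50 after the start) for 6 of these 7 genes, and TGATGNAA, searched on both strands, occurred in 5 of the 6 (Chac1, Nupr1, Pycr1, Asns, Trib3). It occurred in 4.06% of all 27025 promoters of that length. The group was formed by known role, ATF4 genes among them, so its share is a description and no test. The windows of 4 are shown because the element lies close to the start in a set of genes that were high together; each runs 5′ to 3′ toward the start, capitals mark the element, and a match is one of letters and not of binding. They cover chr2:119350992-119351141, plus strand for Chac1, chr7:126625471-126625620, minus strand for Nupr1, chr11:120643749-120643898, minus strand for Pycr1 and chr6:7693210-7693359, minus strand for Asns. The match begins 193, 110, 103 and 23 bases before the start.
Chac1: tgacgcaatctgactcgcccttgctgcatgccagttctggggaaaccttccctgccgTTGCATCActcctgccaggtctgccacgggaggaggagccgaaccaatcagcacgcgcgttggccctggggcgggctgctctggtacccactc
Nupr1: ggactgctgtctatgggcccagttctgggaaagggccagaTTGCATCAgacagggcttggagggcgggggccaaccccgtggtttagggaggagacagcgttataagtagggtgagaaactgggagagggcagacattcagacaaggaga
Pycr1: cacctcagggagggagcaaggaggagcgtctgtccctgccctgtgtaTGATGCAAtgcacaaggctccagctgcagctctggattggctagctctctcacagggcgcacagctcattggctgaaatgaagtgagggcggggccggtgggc
Asns: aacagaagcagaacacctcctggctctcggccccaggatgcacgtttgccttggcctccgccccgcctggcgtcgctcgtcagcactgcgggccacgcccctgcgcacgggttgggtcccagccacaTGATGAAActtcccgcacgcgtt
Chac1 and Nupr1 carry it on the opposite strand, as TTGCATCA. Promoters were found for 94 of the 128 higher and 145 of the 208 lower genes, under 80% of each, so shares of motifs, GC or CpG over whole sets are not given.

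Folate, glutathione and detoxification genes included some of the largest shared increases. Aldh1l1, the folate enzyme 10-formyltetrahydrofolate dehydrogenase (chr6:90486427-90600203), had 0.580 and 0.873 TPM in SL, 70.2 and 75.1 in 2iL, 27.3 and 28.6 in 2iL-F, 11.8 and 11.4 in LCDM and 13.5 and 11.9 in A2iL. Gstm3, a glutathione transferase, had 1.14 and 0.880 TPM in SL, 52.5 and 56.5 in 2iL, 25.9 and 25.05 in 2iL-F, 13.9 and 12.4 in LCDM and 11.01 and 12.6 in A2iL. In both, the libraries labelled 2iL were highest, 2iL-F next, and the difference between LCDM and A2iL did not pass the threshold (adjusted p = 0.32 and 0.22). Ddah2, which breaks down methylated arginines, had 52.9 and 59.8 TPM in SL and 129 to 163 in the serum-free libraries. Ggt1, which splits extracellular glutathione, had 1.83 and 1.72 TPM in SL, 34.1 and 35.9 in 2iL, 6.26 and 5.68 in 2iL-F, 10.9 and 12.4 in LCDM and 5.23 and 4.55 in A2iL, so that A2iL stood only 1.08 above SL and 2iL stood 3.70 above it. None of the 17 tested genes of the fixed NRF2, glutathione and redox list met the shared rule. In the serum-free mean 7 were higher and 9 lower, where 33.7% of all named genes tested were higher and 40.7% lower.

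Energy metabolism enzymes numbered 11. Ldhb, the lactate dehydrogenase subunit of oxidative tissues, had 94.2 and 88.6 TPM in SL, 669 and 813 in 2iL, 404 and 407 in 2iL-F, 365 and 339 in LCDM and 420.5 and 415 in A2iL. Pfkp, platelet phosphofructokinase, had 8.13 and 8.61 TPM in SL and 23.2 to 53.2 in the serum-free libraries, and Aldoc, aldolase C, had 3.56 and 4.45 TPM in SL and 15.6 to 30.9 in the serum-free libraries. These 3 were the shared members of the glycolysis and hypoxia list, in which 8 of 21 tested genes were higher and 8 lower. Over all named genes tested, 33.7% were higher and 40.7% lower. The creatine kinases Ckb and Ckmt1, which buffer ATP, had 81.8 and 82.4 TPM in SL and 170.1 to 815 in the serum-free libraries and 3.70 and 3.43 TPM in SL and 9.19 to 20.6 in the serum-free libraries. Ckb had 647 and 669 TPM in 2iL and 815 and 779 in 2iL-F against 176 and 170.1 in A2iL and 228 and 227 in LCDM. Acss1, the mitochondrial acetyl-CoA synthetase, had 1.51 and 1.40 TPM in SL, 48.6 and 49.0 in 2iL, 28.1 and 28.9 in 2iL-F, 6.5005 and 6.11 in LCDM and 12.3 and 12.1 in A2iL. Cpt1a, the gate for fatty acid entry into mitochondria, had 19.2 and 19.7 TPM in SL and 50.6 to 108 in the serum-free libraries and was highest in LCDM. Ucp2, an inner membrane carrier, was also highest in LCDM, at 61.8 and 64.5 TPM against 15.5 and 16.3 in SL. Idh1 (NADP-dependent isocitrate dehydrogenase), Ogdhl (an oxoglutarate dehydrogenase subunit) and Clybl (citramalyl-CoA lyase) had smaller differences, 1.03 to 2.00 on the log2 scale over the 4 media.

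The higher genes held 7 of lipid handling and 5 of lysosomes and autophagy. Fabp3, a fatty acid binding protein, had 65.8 and 64.5 TPM in SL, 1107 and 1077 in 2iL, 503 and 494 in 2iL-F, 426 and 456 in LCDM and 216 and 217 in A2iL, which put A2iL lowest and 2iL highest of the serum-free media. Apoe, a lipoprotein component, had 307 and 312 TPM in SL, 1216 and 1012 in 2iL, 1178 and 1139 in 2iL-F, 837 and 895 in LCDM and 1403 and 1367 in A2iL. Pltp, the phospholipid transfer protein, had 28.5 and 30.7 TPM in SL and 80.7 to 156 in the serum-free libraries, and Fads1, a fatty acid desaturase, had 29.1 and 31.8 TPM in SL and 65.1 to 131 in the serum-free libraries. Elovl7, Apod and G0s2, an inhibitor of the lipase ATGL, were at 1.46 and 1.05, 1.06 and 0.672 and 0.143 and 0.110 TPM in SL, respectively. Of 21 tested genes of the fatty acid list, 12 were higher and 6 lower, and Fads1, Fabp3 and Cpt1a met the shared rule. Over all named genes tested, 33.7% were higher and 40.7% lower in the serum-free mean. Lysosomal members included Ctsc, a protease, and Laptm5, a membrane protein. Tfeb, the transcription factor that drives lysosomal genes, had 11.6 and 11.6 TPM in SL and 29.8 to 48.3 in the serum-free libraries, and Ulk1, the kinase that starts autophagy, had 32.7 and 31.6 TPM in SL and 70.1 to 121 in the serum-free libraries. Laptm5 had 11.1 and 12.7 TPM in SL and 43.8 to 79.7 in the serum-free libraries.

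Cell surface and secreted proteins made up 14 higher genes. Ly6g6e, a lipid-anchored protein of the Ly6 family (chr17:35076902-35078804), had 0.882 and 0.529 TPM in SL, 52.8 and 50.5 in 2iL, 27.4 and 23.9 in 2iL-F, 22.8 and 23.0 in LCDM and 23.9 and 23.4 in A2iL. It was the higher gene with the largest change reached in every medium, and its levels in A2iL, LCDM and 2iL-F lay close together. Ildr1, of tricellular junctions, and Susd2, a sushi-domain membrane protein, had 2.24 and 2.64 TPM in SL and 19.101 to 77.3 in the serum-free libraries and 1.92 and 2.16 TPM in SL and 15.8 to 96.6 in the serum-free libraries. Bmp7, a ligand of the BMP family, had 1.77 and 1.99 TPM in SL, 28.9 and 25.7 in 2iL, 11.03 and 10.02 in 2iL-F, 17.5 and 19.5 in LCDM and 7.89 and 8.32 in A2iL. Sfrp1, a secreted Wnt antagonist, had 14.2 and 13.5 TPM in SL, 171 and 181 in 2iL, 154 and 147 in 2iL-F, 49.1 and 53.5 in LCDM and 40.6 and 38.1 in A2iL, high where PD0325901 was present. Alpl, the alkaline phosphatase used as a stem cell stain, had 47.6 and 49.3 TPM in SL, 273 and 263 in 2iL, 209 and 201 in 2iL-F, 146 and 154 in LCDM and 118 and 113 in A2iL. The tetraspanin Cd9 had 86.0 and 88.6 TPM in SL and 178 to 686 in the serum-free libraries. Wfdc2, Fetub and A2m, all protease inhibitors, had 21.9 and 21.5 TPM in SL and 58.7 to 314 in the serum-free libraries, 2.67 and 2.76 TPM in SL and 7.43 to 22.4 in the serum-free libraries and 0.107 and 0.0411 TPM in SL and 1.05 to 6.24 in the serum-free libraries. Gpa33, an epithelial surface antigen, had 19.7 and 17.8 TPM in SL, 79.9 and 74.9 in 2iL, 64.9 and 59.6 in 2iL-F, 102 and 110.5 in LCDM and 122 and 123 in A2iL, and was higher in A2iL and LCDM than in the MEK inhibitor media. Pgc, the pepsin precursor progastricsin, had 2.70 and 1.87 TPM in SL and 8.71 to 24.5 in the serum-free libraries, and the photoreceptor cadherin Cdhr1 0.547 and 0.333 TPM in SL and 1.57 to 5.85 in the serum-free libraries. Fbln1, a matrix protein on the fibroblast marker list, was the one marker of that list with a shared increase, at 17.6 and 18.98 TPM in SL, 45.4 and 48.4 in 2iL, 57.7 and 51.8 in 2iL-F, 50.5 and 52.1 in LCDM and 55.2 and 51.7 in A2iL, and its serum-free means spanned 0.22 on the log2 scale.

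Transporters, channels and pumps numbered 11. Aqp3, a channel for water and glycerol (chr4:41092722-41098183), had 3.68 and 3.73 TPM in SL, 247 and 254 in 2iL, 132 and 141 in 2iL-F, 21.8 and 20.7 in LCDM and 12.3 and 12.2 in A2iL, and every library with PD0325901 was above every library without it. Slc17a9, which loads nucleotides into vesicles, had 1.48 and 1.62 TPM in SL, 16.1 and 17.1 in 2iL, 12.5 and 13.3 in 2iL-F, 9.18 and 7.39 in LCDM and 17.005 and 17.98 in A2iL. The pump subunits Atp1b1 (sodium-potassium) and Atp2a3 (calcium) had 32.5 and 34.1 TPM in SL and 106 to 278 in the serum-free libraries and 2.08 and 1.78 TPM in SL and 8.66 to 28.3 in the serum-free libraries. Slc30a2, a zinc exporter, had 3.95 and 3.08 TPM in SL, 39.8 and 41.2 in 2iL, 19.06 and 20.6 in 2iL-F, 8.98 and 8.87 in LCDM and 23.7 and 21.6 in A2iL. Slc44a1, a choline transporter, had 12.4 and 12.8 TPM in SL and 26.1 to 37.7 in the serum-free libraries and did not pass the limma F test of a difference among the media (adjusted p = 0.11). Slc12a7 (potassium-chloride cotransport) and Slc8b1 (mitochondrial sodium-calcium exchange) had 7.61 and 8.24 TPM in SL and 19.4 to 67.1 in the serum-free libraries and 7.53 and 8.75 TPM in SL and 19.07 to 50.7 in the serum-free libraries. The glutamate receptor subunits Grin1 and Grik3 had 0.0900 and 0.159 TPM in SL and 1.45 to 11.8 in the serum-free libraries and 4.56 and 5.64 TPM in SL and 12.7 to 21.7 in the serum-free libraries. Slc12a8 had 0.617 and 0.779 TPM in SL and 3.45 to 6.75 in the serum-free libraries.

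Signalling proteins best known from blood cells were higher in 9 cases. Jak3, a cytokine receptor kinase, had 7.78 and 8.46 TPM in SL, 84.7 and 79.9 in 2iL, 66.6 and 64.4 in 2iL-F, 31.4 and 32.2 in LCDM and 32.1 and 31.4 in A2iL. Inpp5d, the lipid phosphatase SHIP1, had 4.86 and 5.16 TPM in SL and 23.8 to 59.0 in the serum-free libraries, and Ly75, an endocytic receptor, 6.09 and 6.52 TPM in SL and 27.8 to 87.3 in the serum-free libraries. Ptpn6, the phosphatase SHP1, had 11.8 and 9.47 TPM in SL and 20.6 to 29.6 in the serum-free libraries and did not pass the limma F test among the media (adjusted p = 0.11). The other members were Gna15, Pycard, Sh3bp1, Acap1 and Sigirr. The leukocyte markers Ptprc and Aif1 were under 1 TPM in all 10 libraries, and the sum of 6 macrophage markers was 22.8 to 28.1 TPM in SL and 27.3 to 41.9 in the serum-free libraries. Most markers did not move as that sum did. Of the 4 tested, 1 was higher and 3 lower in the serum-free mean, with a median of -0.62 on the log2 scale.

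Other regulators of transcription and chromatin numbered 10. Pou2f3, a POU factor known from chemosensory tuft cells, had 0.727 and 1.15 TPM in SL, 26.7 and 26.97 in 2iL, 20.3 and 19.4 in 2iL-F, 11.4 and 11.4 in LCDM and 11.4 and 11.9 in A2iL. Tead4, the DNA-binding partner of YAP in trophectoderm, had 5.72 and 5.64 TPM in SL and 24.6 to 61.0 in the serum-free libraries. Klf15, a Krüppel-like factor of metabolic tissues, had 1.47 and 0.930 TPM in SL, 45.4 and 42.4 in 2iL, 11.05 and 10.7 in 2iL-F, 6.93 and 6.83 in LCDM and 9.52 and 10.2 in A2iL. H2afy, the histone variant macroH2A1, had 34.4 and 36.0 TPM in SL and 78.9 to 177 in the serum-free libraries. Morc1, which silences transposons in germ cells, had 8.30 and 8.64 TPM in SL and 23.6 to 106 in the serum-free libraries. Rfx2, Cdyl2 and Aff1 were also among them, and Cdyl2 was highest in LCDM (69.9 and 68.3 TPM).

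Genes linked to germ cells were Lrrc34, M1ap, Patl2, Tex14 and Triml1. Lrrc34 had 5.14 and 5.44 TPM in SL, 48.0 and 56.0 in 2iL, 37.5 and 42.6 in 2iL-F, 41.3 and 43.0 in LCDM and 43.9 and 48.3 in A2iL, and its gene overlaps that of Lrriq4 on chromosome 3, which had 2.03 and 2.09 TPM in SL and 11.1 to 21.2 in the serum-free libraries. Since the sources used here do not say whether counting used strand, reads in the overlap may not be assigned to one of the pair. M1ap, of meiosis, had 1.58 and 2.09 TPM in SL, 34.99 and 37.8 in 2iL, 26.7 and 26.0 in 2iL-F, 11.7 and 12.6 in LCDM and 9.60 and 11.3 in A2iL. Tex14, of intercellular bridges, had 1.59 and 2.22 TPM in SL and 7.71 to 17.4 in the serum-free libraries. Mcf2, a guanine nucleotide exchange factor on the X chromosome, had 2.63 and 2.82 TPM in SL, 12.8 and 17.4 in 2iL, 36.4 and 40.2 in 2iL-F, 18.2 and 14.8 in LCDM and 23.1 and 22.5 in A2iL, highest in 2iL-F. The fixed list of germline genes that DNA methylation silences had no shared member.

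**Figure D2:**
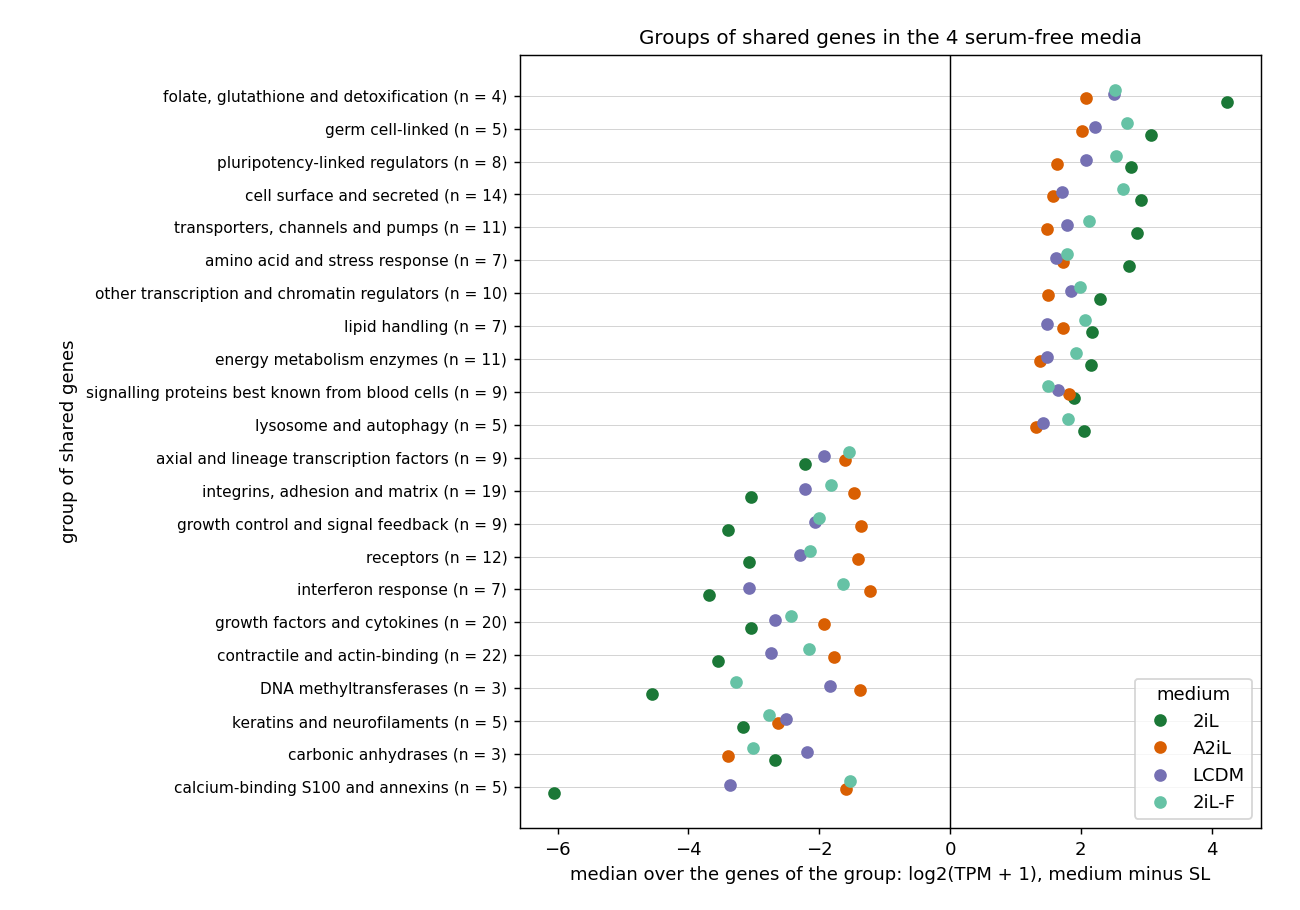
Each row is a group of shared genes, with the number of genes in brackets, and each point is the median over the group of log2(TPM + 1) in 1 medium minus SL. The groups were formed after the values were seen. Points of the libraries labelled 2iL lie farthest from 0 in most groups, as in S100 and annexin genes, with -6.06 in 2iL and -1.53 in 2iL-F.

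The lower genes were led by the contractile cytoskeleton, with 22 genes in this group. Tagln, or SM22, an actin-binding protein of smooth muscle (chr9:45929619-45936058), had 884 and 933 TPM in SL, 0.661 and 0.414 in 2iL, 27.6 and 25.9 in 2iL-F, 31.5 and 27.3 in LCDM and 25.4 and 25.3 in A2iL. The differences from SL were -9.21 in 2iL, -5.03 in 2iL-F, -4.90 in LCDM and -5.11 in A2iL on the log2 scale. Acta2, smooth muscle actin, had 875 and 907 TPM in SL, 0 and 0 in 2iL, 36.8 and 39.3 in 2iL-F, 30.8 and 26.3 in LCDM and 23.7 and 24.8 in A2iL. Both had at least 875 TPM in serum and at most 39.3 TPM in any serum-free library, and A2iL, LCDM and 2iL-F lay close together while the libraries labelled 2iL were at or near 0. Cnn1, calponin 1, had 32.4 and 30.4 TPM in SL, 0 and 0.0301 in 2iL, 0.751 and 0.862 in 2iL-F, 0.604 and 1.10 in LCDM and 0.415 and 0.568 in A2iL. The tropomyosins Tpm1 and Tpm2, which wrap actin filaments, had 279 and 283 TPM in SL, 25.4 and 27.3 in 2iL, 31.7 and 33.1 in 2iL-F, 30.2 and 26.98 in LCDM and 42.4 and 43.1 in A2iL for Tpm1 and 105 and 112 TPM in SL, 5.36 and 5.07 in 2iL, 14.5 and 14.0 in 2iL-F, 10.1 and 11.01 in LCDM and 17.03 and 16.5 in A2iL for Tpm2. Tpm4 had 392 and 394 TPM in SL and 88.9 to 169 in the serum-free libraries. Acta1, skeletal actin, had 34.0 and 34.6 TPM in SL, 0.285 and 0 in 2iL, 7.22 and 1.19 in 2iL-F, 1.01 and 7.41 in LCDM and 0.222 and 0.0595 in A2iL; its 2 libraries differed several-fold in LCDM and in 2iL-F, so its order among media is uncertain.

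Adapters that join actin to adhesions were lower by smaller amounts. Vcl, vinculin, had 68.8 and 69.1 TPM in SL and 27.2 to 33.6 in the serum-free libraries and lay near the threshold, with differences of -1.12 in 2iL, -1.10 in 2iL-F, -1.28 in LCDM and -1.03 in A2iL. Zyx, zyxin, had 94.3 and 101 TPM in SL, 9.22 and 9.64 in 2iL, 29.2 and 28.5 in 2iL-F, 19.5 and 19.6 in LCDM and 39.1 and 39.1 in A2iL. Fhl2, an adapter and SRF target, had 30.0 and 30.9 TPM in SL, 0.277 and 0.130 in 2iL, 4.81 and 4.005 in 2iL-F, 4.56 and 2.98 in LCDM and 5.21 and 5.06 in A2iL. Cald1, caldesmon, had 132 and 137 TPM in SL, 17.4 and 18.6 in 2iL, 41.2 and 42.4 in 2iL-F, 11.5 and 10.7 in LCDM and 40.7 and 41.3 in A2iL and was lowest in LCDM. Dbn1, drebrin, had 97.5 and 103 TPM in SL, 1.55 and 1.55 in 2iL, 36.5 and 34.3 in 2iL-F, 26.2 and 27.5 in LCDM and 34.8 and 34.6 in A2iL. The group also held Lpp, Tgfb1i1, Pdlim7, Myh11, Cnn2, Actn3, Parva and Ankrd1. Its count of 22 includes Samd4 as well, which is not itself an actin-binding protein. Cnn2 was lowest in 2iL-F (38.5 and 33.9 TPM against 263 and 274 in SL). Of 26 tested genes of the fixed contractile and SRF list, 24 were lower and 1 higher in the serum-free mean, with a median of -1.53, and 14 met the shared rule. Tagln and Acta2 are also on the fibroblast marker list, whose summed level is given above and again with the matrix genes.

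SRF binds a motif called the CArG box. Promoter entries existed for 16 of the 22 members of the contractile group, Samd4 included. Of the 16, 4 held a CArG box in the window (Acta1, Cnn2, Fhl2, Vcl), against 1.57% of all promoters. The contractile group was formed by known role, SRF targets among them, so this count is a description and no test. Dusp5, an ERK phosphatase among the lower genes, held a pair of CArG boxes. The windows of Acta1 (chr8:123894776-123894925, minus strand), Fhl2 (chr1:43196762-43196911, minus strand) and Dusp5 (chr19:53528995-53529144, plus strand) are printed to show where the motif, in capitals, lies relative to the start at the right end; in Dusp5 the pair abut and read as one run.
Acta1: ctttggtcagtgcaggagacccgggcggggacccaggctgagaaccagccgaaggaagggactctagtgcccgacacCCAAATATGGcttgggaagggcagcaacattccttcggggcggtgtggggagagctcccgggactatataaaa
Fhl2: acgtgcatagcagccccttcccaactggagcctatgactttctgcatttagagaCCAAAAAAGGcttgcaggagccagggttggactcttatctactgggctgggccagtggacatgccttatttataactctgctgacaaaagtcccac
Dusp5: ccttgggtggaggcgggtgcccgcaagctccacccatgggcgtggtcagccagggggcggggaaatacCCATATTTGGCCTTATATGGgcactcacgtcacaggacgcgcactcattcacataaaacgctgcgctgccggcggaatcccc
The motifs begin at base -73 in Acta1, -96 in Fhl2 and -82 and -72 in Dusp5, counted from the start. The windows are from GRCm38.p6, and the motif was searched on both strands.

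Of the fixed lists of YAP-TEAD targets and of TGF-beta, Activin and Nodal targets, 6 of 14 and 4 of 10 tested genes met the shared rule downward. Among all named genes tested, 208 of 7962 did. Ctgf, a matricellular protein and standard YAP target, had 219 and 235 TPM in SL, 15.8 and 19.03 in 2iL, 61.4 and 58.2 in 2iL-F, 65.8 and 55.5 in LCDM and 61.8 and 61.4 in A2iL. A2iL, LCDM and 2iL-F overlapped, and the libraries labelled 2iL were lower. Ankrd1 had 26.9 and 29.7 TPM in SL, 0 and 0 in 2iL, 3.09 and 3.07 in 2iL-F, 1.21 and 0.950 in LCDM and 3.86 and 4.71 in A2iL, and Axl, a receptor kinase, 131 and 134 TPM in SL, 0.523 and 0.802 in 2iL, 23.4 and 24.0 in 2iL-F, 13.8 and 11.9 in LCDM and 51.1 and 53.1 in A2iL. Lats2, the kinase that restrains YAP, had 21.2 and 21.8 TPM in SL and 0.843 to 10.1 in the serum-free libraries. Crim1, a BMP antagonist, and F3, tissue factor, had 41.2 and 42.9 TPM in SL and 2.09 to 12.7 in the serum-free libraries and 54.8 and 57.6 TPM in SL and 5.59 to 12.3 in the serum-free libraries. In the serum-free mean 12 of the 14 YAP-TEAD genes were lower and 1 higher, with a median of -1.85, and 7 of the 10 TGF-beta genes were lower and 1 higher. The shared members of the second list were Skil, a brake on Smad proteins, at 33.2 and 34.7 TPM in SL and 8.95 to 14.3 in the serum-free libraries; Ltbp1, which holds latent TGF-beta in the matrix, at 23.7 and 24.4 TPM in SL and 1.70 to 5.94 in the serum-free libraries; Tgfb1i1; and Ctgf.

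Growth factors and cytokines gave 20 lower genes. Wnt8a, a Wnt ligand of the early embryo, had 25.6 and 25.4 TPM in SL, 0.0502 and 0 in 2iL, 0.0512 and 0 in 2iL-F, 0.445 and 0.607 in LCDM and 0.911 and 0.628 in A2iL. Fgf8, a ligand of the primitive streak, had 16.5 and 17.02 TPM in SL, 0.195 and 0.366 in 2iL, 0.132 and 0.647 in 2iL-F, 0.864 and 1.11 in LCDM and 0.252 and 0.271 in A2iL, and Wnt3 had 5.35 and 6.88 TPM in SL, 0.171 and 0.375 in 2iL, 0.0581 and 0.312 in 2iL-F, 0.158 and 0.143 in LCDM and 0.369 and 0.267 in A2iL. Levels of all 3 in every serum-free library lay near or below 1 TPM, and Wnt3 did not pass the limma F test among the media (adjusted p = 0.59). Fgf5, the classical marker of the primed epiblast, was low already in SL, at 2.19 and 2.69 TPM in SL and 0 to 0.273 in the serum-free libraries. Fgf15, Wnt2 and Wnt7a were likewise low, with 4.69 and 5.13 TPM in SL and 0.114 to 0.693 in the serum-free libraries, 1.66 and 1.36 TPM in SL and 0 to 0.172 in the serum-free libraries and 1.30 and 1.55 TPM in SL and 0 to 0.113 in the serum-free libraries. Csf1, the macrophage growth factor, had 194 and 202 TPM in SL, 0.149 and 0.156 in 2iL, 16.8 and 16.3 in 2iL-F, 10.4 and 10.2 in LCDM and 72.9 and 71.6 in A2iL. Tgfb3 had 27.7 and 27.996 TPM in SL and 0.0777 to 10.6 in the serum-free libraries, and Hbegf, an EGF receptor ligand, 70.2 and 69.5 TPM in SL, 14.6 and 16.6 in 2iL, 13.6 and 13.8 in 2iL-F, 35.5 and 31.4 in LCDM and 28.5 and 25.2 in A2iL. Ltb, lymphotoxin beta, had 19.3 and 23.0 TPM in SL and 0.225 to 1.09 in the serum-free libraries, and the platelet chemokine Ppbp 5.99 and 5.505 TPM in SL and 0 to 0.169 in the serum-free libraries. Il11, Tnfsf11, Cxcl10, Cxcl14 and the Notch ligand Dll3 were also in this group.

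Receptors numbered 12. Lrp2, or megalin, which takes up vitamin carriers, had 14.0 and 14.1 TPM in SL, 0.798 and 1.01 in 2iL, 0.460 and 0.429 in 2iL-F, 0.949 and 0.772 in LCDM and 0.381 and 0.476 in A2iL. Tnfrsf12a, the receptor for TWEAK, had 250.2 and 252 TPM in SL, 58.9 and 50.7 in 2iL, 45.3 and 45.3 in 2iL-F, 35.2 and 33.9 in LCDM and 68.9 and 69.2 in A2iL. Cntfr, the ciliary neurotrophic factor receptor, had 40.3 and 41.3 TPM in SL, 0.977 and 1.33 in 2iL, 3.92 and 3.80 in 2iL-F, 14.5 and 16.1 in LCDM and 4.61 and 4.30 in A2iL and had its highest serum-free level in LCDM. Epha1 had 26.4 and 26.5 TPM in SL, 1.56 and 1.78 in 2iL, 1.001 and 0.6002 in 2iL-F, 6.04 and 6.29 in LCDM and 11.4 and 12.2 in A2iL, low in both MEK inhibitor media, while the vascular receptors Flt1 and Nrp1 had 9.03 and 10.4 TPM in SL and 0.162 to 4.02 in the serum-free libraries and 12.7 and 12.99 TPM in SL and 0 to 4.55 in the serum-free libraries. Il1rl1, Flt4, Gfra1, Adora2b and Adra2a were the others with Axl. In the retinoic acid list, 10 of 14 tested genes were lower and 2 higher, with Rdh10, which makes retinal, at 8.91 and 10.4 TPM in SL and 1.94 to 3.61 in the serum-free libraries, and Hoxb1 as shared members.

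The de novo DNA methyltransferase genes were lower in every medium, by amounts that differed widely. Dnmt3b had 214 and 217 TPM in SL, 7.73 and 8.82 in 2iL, 21.0 and 22.4 in 2iL-F, 55.4 and 51.9 in LCDM and 99.1 and 94.6 in A2iL. Dnmt3a had 41.9 and 42.7 TPM in SL, 3.08 and 3.16 in 2iL, 3.45 and 3.52 in 2iL-F, 18.8 and 17.97 in LCDM and 10.7 and 11.3 in A2iL, and Dnmt3l, the catalytically inactive partner, had 104 and 105 TPM in SL, 3.20 and 3.67 in 2iL, 4.49 and 4.12 in 2iL-F, 29.3 and 27.5 in LCDM and 39.7 and 39.4 in A2iL. All 3 were lowest in the libraries labelled 2iL, and the libraries with PD0325901 lay below all those of A2iL and LCDM. The contrast of the MEK inhibitor media with the other 2 was -2.33 ± 0.048 (SE, adjusted p = 4.3e-09) for Dnmt3b, -1.83 ± 0.040 (SE, adjusted p = 6.0e-09) for Dnmt3a and -2.83 ± 0.048 (SE, adjusted p = 1.3e-09) for Dnmt3l. The difference of A2iL from SL was -1.15 for Dnmt3b and -1.38 for Dnmt3l, close to the threshold of the rule.

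Transcription factors of axes and lineages were mostly low genes. Cdx2, a caudal factor of trophectoderm and posterior embryo, had 3.53 and 3.78 TPM in SL and 0 to 0.772 in the serum-free libraries, and Cdx4 had 2.03 and 2.79 TPM in SL and 0 to 0.405 in the serum-free libraries. Hoxb1 had 2.04 and 1.49 TPM in SL and 0 to 0.0385 in the serum-free libraries, Pax6, of neural ectoderm, 2.18 and 3.21 TPM in SL and 0.102 to 0.377 in the serum-free libraries, and Wt1, of mesoderm, 5.78 and 5.01 TPM in SL and 0 to 0.424 in the serum-free libraries. Hoxc8 had 11.98 and 13.4 TPM in SL, 0.341 and 0.436 in 2iL, 5.08 and 4.50 in 2iL-F, 2.30 and 1.87 in LCDM and 4.93 and 6.32 in A2iL. Grhl2, a factor of epithelia, had 9.18 and 9.75 TPM in SL, 0.590 and 0.708 in 2iL, 0.332 and 0.466 in 2iL-F, 1.40 and 1.33 in LCDM and 1.53 and 1.94 in A2iL, lowest where PD0325901 was present. Foxp1 had 17.2 and 17.3 TPM in SL and 2.28 to 5.28 in the serum-free libraries and Etv2, of early blood vessels, 7.62 and 8.53 TPM in SL and 1.22 to 3.67 in the serum-free libraries. Of the 9, 8 had serum-free means that spanned less than 1 on the log2(TPM + 1) scale, which compresses spans near 0 TPM.

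Growth control and feedback genes included Myc, with 67.2 and 70.1 TPM in SL, 0.194 and 0.333 in 2iL, 7.4999 and 7.78 in 2iL-F, 10.8 and 9.88 in LCDM and 19.6 and 19.5 in A2iL. Ccnd2, cyclin D2, had 79.2 and 85.2 TPM in SL, 0.0932 and 0.0350 in 2iL, 19.5 and 20.1 in 2iL-F, 8.38 and 7.38 in LCDM and 28.8 and 29.4 in A2iL. Both ranked A2iL highest and the libraries labelled 2iL lowest, near 0. Pim2, a survival kinase on the X chromosome (chrX:7878262-7883432), had 98.6 and 102 TPM in SL, 7.65 and 9.11 in 2iL, 6.71 and 6.34 in 2iL-F, 8.84 and 9.63 in LCDM and 8.13 and 8.59 in A2iL, so that all 8 serum-free libraries lay close together. Dusp5, which switches off ERK in the nucleus, had 64.3 and 60.03 TPM in SL, 5.25 and 4.70 in 2iL, 6.79 and 7.03 in 2iL-F, 16.2 and 15.9 in LCDM and 15.7 and 16.6 in A2iL, lowest in the media with PD0325901. Errfi1, an inhibitor of the EGF receptor, had 52.1 and 53.4 TPM in SL, 9.03 and 9.87 in 2iL, 8.23 and 8.22 in 2iL-F, 11.7 and 11.8 in LCDM and 24.2 and 25.6 in A2iL. Bcl2l11, the death protein Bim, and Id2, an inhibitor of helix-loop-helix factors, had 11.1 and 11.6 TPM in SL and 2.98 to 4.13 in the serum-free libraries and 15.8 and 16.8 TPM in SL and 3.51 to 7.27 in the serum-free libraries. Of the FGF-ERK feedback and target list, 16 of 17 tested genes were lower and 1 higher, and 2 (Dusp5, Myc) met the shared rule. In the Wnt target list 6 of 11 were lower and 3 higher, where every serum-free culture contained Chir99021, with Cdx2 and Wnt8a as shared members.

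Integrins, adhesion proteins and matrix gave 19 lower genes. Itgb1, the common beta subunit of integrins (chr8:128685654-128733200), had 483 and 479 TPM in SL, 135 and 169.7 in 2iL, 163 and 173 in 2iL-F, 113 and 106 in LCDM and 168 and 166 in A2iL. Itga3, a laminin-binding alpha subunit, had 63.0 and 70.0 TPM in SL, 22.1 and 21.9 in 2iL, 11.1 and 11.03 in 2iL-F, 21.4 and 23.5 in LCDM and 6.98 and 6.30 in A2iL, lowest in A2iL, and Itgb3 had 8.62 and 8.24 TPM in SL and 1.85 to 3.33 in the serum-free libraries. Cd44, the receptor for hyaluronan, had 102 and 107 TPM in SL, 0.0129 and 0.0122 in 2iL, 23.1 and 22.4 in 2iL-F, 5.19 and 4.95 in LCDM and 24.6 and 24.5 in A2iL, and Has2, which makes hyaluronan, 24.9 and 24.4 TPM in SL, 0.0414 and 0.0389 in 2iL, 2.59 and 2.84 in 2iL-F, 0.734 and 0.625 in LCDM and 2.63 and 2.46 in A2iL. Cdh2, N-cadherin, had 17.5 and 18.6 TPM in SL, 0.185 and 0.235 in 2iL, 5.496 and 5.65 in 2iL-F, 2.33 and 2.17 in LCDM and 7.28 and 7.35 in A2iL. Cldn6, a claudin of early epithelia, had 100.1 and 104 TPM in SL, 38.5 and 43.0 in 2iL, 2.55 and 3.94 in 2iL-F, 42.0 and 42.8 in LCDM and 39.7 and 40.9 in A2iL, and was lowest in 2iL-F. Tnc, tenascin C, had 478 and 499.8 TPM in SL, 0 and 0.0106 in 2iL, 95.3 and 92.1 in 2iL-F, 23.3 and 22.6 in LCDM and 206 and 198 in A2iL. Timp1, an inhibitor of matrix proteases, had 527 and 539 TPM in SL, 122 and 129.7 in 2iL, 239.7 and 242 in 2iL-F, 79.6 and 91.4 in LCDM and 197 and 186 in A2iL, and Loxl3, a collagen crosslinking enzyme, 54.7 and 55.2 TPM in SL and 5.28 to 13.6 in the serum-free libraries. Bcar1, the Src substrate p130Cas, had 82.5 and 88.5 TPM in SL, 21.9 and 19.2 in 2iL, 28.03 and 26.2 in 2iL-F, 40.7 and 42.4 in LCDM and 31.7 and 31.5 in A2iL, and was not lowest in A2iL, the medium with the Src inhibitor. The group also held Smoc2, Perp, Ntn4, Thbs3, Mgp, Cdh11, Thy1 and Col2a1. In the integrin and adhesion list 16 of 20 tested genes were lower and 3 higher, and 7 lower genes and Pecam1 met the rule. In the collagen and matrix list 34 of 42 were lower and 6 higher, and 4 met it (Fbln1 upward, Loxl3, Tnc and Timp1 downward).

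Of the 36 fibroblast markers, 8 were among the shared lower genes (Thy1, S100a4, Timp1, Cdh11, Tnc, Mgp, Acta2, Tagln). Relative to the SL mean, the summed markers stood at 15.1% and 16.0% in 2iL, 61.0% and 61.9% in A2iL, 19.6% and 19.7% in LCDM and 77.6% and 80.8% in 2iL-F. The median lower gene stood at 4.9% and 5.1% of its SL mean in 2iL, 26.97% and 27.19% in A2iL, 12.9% and 13.4% in LCDM and 16.2% and 16.3% in 2iL-F. Lowest in 2iL and lower in LCDM than in A2iL and 2iL-F, as the fibroblast sum was, were 85 of 208 lower genes (40.9%), against 14.9% of named genes tested. A tie at 0 TPM counted as lowest in 2iL. Both the sum of all 36 markers and the median lower gene were thus below SL in every serum-free medium. That sum includes the 8 shared lower genes. Over the 27 markers that are no members, the sum was 24.6% and 25.9% of SL in 2iL and 31.0% and 30.8% in LCDM. It was 102.7% and 101.6% in A2iL and 141.1% and 135.2% in 2iL-F, so not below SL there. The part of fibroblast RNA in the differences from SL was not tested. Leaving out the libraries labelled 2iL, 252 lines met the rule upward and 417 downward. All 231 and 395 of the reported ones are among them by construction, since leaving out a medium only removes conditions of the rule.

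**Figure D3:**
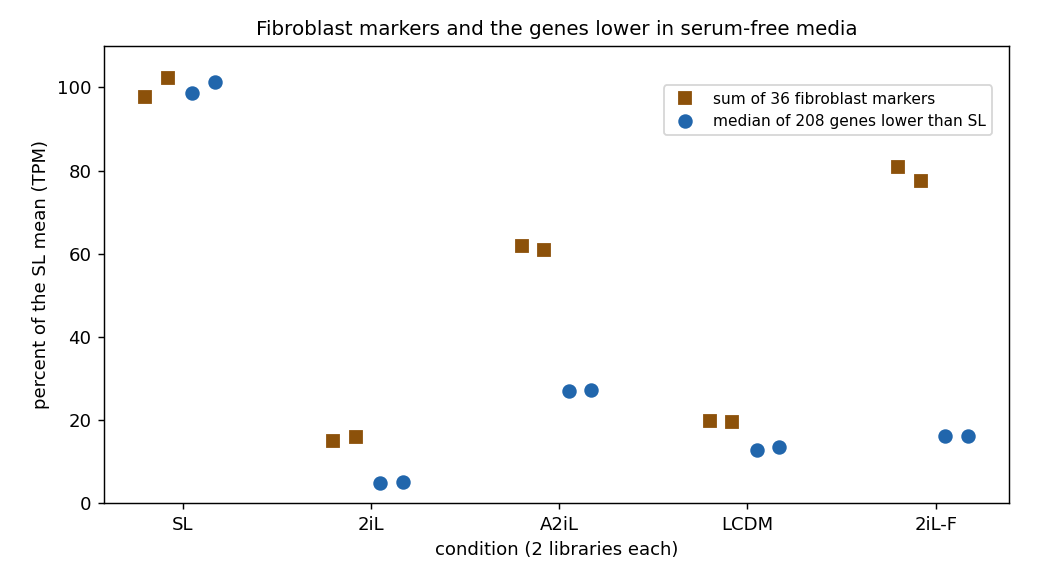
Squares give the summed TPM of 36 fibroblast markers and circles the median over the 208 named lower genes, both as percent of the SL mean, with a mark for each library. In 2iL-F the marker sum was at 77.6% and 80.8% and the median lower gene at 16.2% and 16.3%. In 2iL both were at 16.0% or less. The markers include 8 of the lower genes, and without all members the sum was at 141.1% and 135.2% in 2iL-F.

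In all 5 S100 and annexin members, which encode calcium-binding proteins, 2iL was lowest and LCDM next lowest, as in the fibroblast sum, but 4 of the 5 were highest of the serum-free media in A2iL, where the sum was highest in 2iL-F. S100a6 had 775 and 762 TPM in SL, 3.01 and 2.65 in 2iL, 82.7 and 86.0 in 2iL-F, 67.4 and 69.9 in LCDM and 212 and 217 in A2iL, and its neighbour S100a4 had 235 and 241 TPM in SL, 0 and 0.282 in 2iL, 13.3 and 11.96 in 2iL-F, 5.83 and 5.59 in LCDM and 25.9 and 24.6 in A2iL. Anxa1 had 182 and 186 TPM in SL, 1.78 and 1.77 in 2iL, 62.3 and 64.6 in 2iL-F, 20.4 and 21.2 in LCDM and 83.4 and 84.0 in A2iL, Anxa2 205 and 202 TPM in SL, 5.33 and 6.29 in 2iL, 75.6 and 74.8 in 2iL-F, 21.8 and 21.8 in LCDM and 73.7 and 77.0 in A2iL and Anxa3 48.7 and 52.6 TPM in SL and 0.193 to 17.03 in the serum-free libraries.

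Interferon-response genes were 7 in number. Isg15, a ubiquitin-like protein (chr4:156199424-156200818), had 96.7 and 86.2 TPM in SL, 0.116 and 0.109 in 2iL, 33.9 and 30.8 in 2iL-F, 2.57 and 1.98 in LCDM and 31.9 and 32.7 in A2iL. Ifit1, which binds foreign RNA, had 19.8 and 21.9 TPM in SL, 0.0660 and 0 in 2iL, 5.89 and 6.15 in 2iL-F, 0.696 and 0.598 in LCDM and 7.96 and 8.80 in A2iL, and Gbp2, a guanylate-binding GTPase, 18.3 and 18.99 TPM in SL, 0 and 0 in 2iL, 4.30 and 4.44 in 2iL-F, 0.618 and 0.421 in LCDM and 7.22 and 5.01 in A2iL. A2iL and 2iL-F had about the same level of Isg15, LCDM was far lower and the libraries labelled 2iL were near 0. Usp18, which removes Isg15, had 11.9 and 11.8 TPM in SL and 0 to 5.16 in the serum-free libraries, and Ifi44 and Ifi27l2b had 5.33 and 5.08 TPM in SL and 0 to 2.10 in the serum-free libraries and 4.79 and 3.61 TPM in SL and 0 to 0.251 in the serum-free libraries. Psmb10, an immunoproteasome subunit, had 48.3 and 44.8 TPM in SL and 16.3 to 24.4 in the serum-free libraries, and its serum-free means spanned 0.42 on the log2 scale. Of 16 tested genes of the interferon list, 14 were lower and 1 higher in the serum-free mean, and 5 met the shared rule. For 5 of the 7 2iL was lowest and LCDM was below A2iL and 2iL-F, as for the summed fibroblast markers.

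Interferon-stimulated genes carry response elements built on GAAA, any 2 bases, and GAAA again. Among the 5 interferon members with a promoter entry, 3 held that motif (Isg15, Ifit1, Gbp2), against 3.49% of all promoters. This group too was formed by known role, so the count is a description and no test. The windows of Isg15 (chr4:156200819-156200968, minus strand) and Ifit1 (chr19:34640739-34640888, plus strand) are shown because the motif repeats there; capitals mark it, both strands were searched, and overlapping matches are merged.
Isg15: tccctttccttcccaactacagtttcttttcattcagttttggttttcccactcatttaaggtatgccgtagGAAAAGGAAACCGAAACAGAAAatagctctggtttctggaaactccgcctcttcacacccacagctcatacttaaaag
Ifit1: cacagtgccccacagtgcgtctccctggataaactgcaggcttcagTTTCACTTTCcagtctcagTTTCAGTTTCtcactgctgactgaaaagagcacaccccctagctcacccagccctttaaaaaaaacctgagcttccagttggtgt
Isg15 held 3 overlapping matches, beginning at bases -78, -72 and -66, and Ifit1 held 2 on the opposite strand, at -104 and -85.

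Keratins and neurofilaments gave 5 lower genes. Krt18, a keratin of simple epithelia, had 180.1 and 192 TPM in SL, 21.5 and 18.2 in 2iL, 4.66 and 3.71 in 2iL-F, 12.7 and 13.9 in LCDM and 9.64 and 9.79 in A2iL, and was lowest in 2iL-F. Krt19 had 22.1 and 21.5 TPM in SL and 0.851 to 2.56 in the serum-free libraries and Krt20 5.76 and 5.64 TPM in SL and 0 to 0.303 in the serum-free libraries. The neuronal filaments Ina and Nefh had 78.7 and 80.2 TPM in SL, 2.81 and 3.33 in 2iL, 4.44 and 5.17 in 2iL-F, 12.6 and 13.7 in LCDM and 21.7 and 18.7 in A2iL for Ina and 26.2 and 27.4 TPM in SL and 2.23 to 7.87 in the serum-free libraries for Nefh. In the keratin and epithelial junction list, 9 of 12 tested genes were lower and 2 higher, and 4 met the rule (Krt18, Krt19, Krt20, Grhl2). The carbonic anhydrases Car2, Car3 and Car4 were all highest of the serum-free media in LCDM. Car2 had 51.2 and 55.3 TPM in SL, 6.80 and 8.16 in 2iL, 5.39 and 6.09 in 2iL-F, 11.3 and 10.5 in LCDM and 4.36 and 3.997 in A2iL, and Car4 had 15.4 and 15.4 TPM in SL, 0 and 0 in 2iL, 0 and 0 in 2iL-F, 1.24 and 1.08 in LCDM and 0.231 and 0.232 in A2iL.

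Further lower genes with large shared differences fell in none of these groups. Tmem54, a membrane protein, had 21.0 and 15.1 TPM in SL, 0.0717 and 0 in 2iL, 0.146 and 0.0715 in 2iL-F, 0.0796 and 0.289 in LCDM and 0.0930 and 0.224 in A2iL, and did not pass the limma F test among the serum-free media (adjusted p = 0.68). Spink1, a trypsin inhibitor, had 18.9 and 18.5 TPM in SL and 0 to 0.837 in the serum-free libraries. Dok2, an adapter of receptor kinases, had 31.1 and 31.4 TPM in SL, 0.665 and 0.568 in 2iL, 3.60 and 3.67 in 2iL-F, 3.45 and 3.62 in LCDM and 2.86 and 3.27 in A2iL. Gzme, granzyme E, had 28.2 and 25.4 TPM in SL and 0 to 2.99 in the serum-free libraries, the protease Mmp25 11.8 and 11.1 TPM in SL and 0.303 to 0.922 in the serum-free libraries and Fndc3c1, on the X chromosome, 9.30 and 9.99 TPM in SL and 0 to 0.378 in the serum-free libraries. The iron exporter Slc40a1 and the growth factor carrier Igfbp3 had 2.84 and 3.12 TPM in SL and 0.0915 to 0.520 in the serum-free libraries and 47.0 and 43.7 TPM in SL and 7.11 to 19.2 in the serum-free libraries. Of all named members, 2 higher and 6 lower genes were X-linked, and 3.14% of all named genes are.

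A shared direction against serum did not mean equal levels among the serum-free media. By the limma F test, 123 of the 128 higher genes and 172 of the 208 lower genes differed among the 4 media. These are 96.1% and 82.7%, against 87.1% of the named and 84.1% of all genes tested. Over the 336 members together the share was 87.8%, close to that of the named genes. Of the lower genes, 42 were under 1 TPM in all 8 serum-free libraries, so they passed the filter through SL alone. The median span of the serum-free means was 1.11 for the higher and 1.18 for the lower genes on the log2 scale, against 0.61 over the named genes tested. It was under 1 for 54 higher and 93 lower genes.

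For most members the 2 media with PD0325901, averaged, lay farther from serum than the other 2. The mean of 2iL and 2iL-F was above that of A2iL and LCDM for 104 of the 128 higher genes (81.2%) and below it for 9, where named genes tested gave 30.7% above and 36.0% below, and 63.9% of all genes tested were called. For the lower genes the contrast was downward in 138 of 208 (66.3%) and upward in 12. Here and in the contrasts below, the 208 include the 42 under 1 TPM in all 8 serum-free libraries. Those passed the filter through SL alone, so shares of the lower genes are not fully comparable with those of all named genes. The median differences were 0.53 for the higher, -0.44 for the lower and -0.04 for all named genes. The average hides a difference in the lower set, where the median gene stood at 16.2% and 16.3% of SL in 2iL-F and so nearer to serum than in LCDM (12.9% and 13.4%). All 4 libraries with PD0325901 were above all 4 without it for 63 higher genes (49.2%, against 12.7% of named genes tested) and below them for 49 lower genes (23.6%, against 13.6%). Fibroblast marker sums of the 2 MEK inhibitor media lay on both sides of those of A2iL and LCDM.

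Aqp3 differed most in this direction, by 3.44 ± 0.037 (SE, adjusted p = 1.8e-10), followed by Acss1 (1.97 ± 0.040 (SE, adjusted p = 4.3e-09)), Ckb (1.86 ± 0.029 (SE, adjusted p = 9.3e-10)) and Sfrp1 (1.83 ± 0.043 (SE, adjusted p = 7.5e-09)). The downward extremes were Tnc (-2.84 ± 0.034 (SE, adjusted p = 3.2e-10)), Dnmt3l (-2.83 ± 0.048 (SE, adjusted p = 1.3e-09)), S100a6 (-2.76 ± 0.038 (SE, adjusted p = 4.3e-10)) and Csf1 (-2.68 ± 0.035 (SE, adjusted p = 3.9e-10)). For Dnmt3l both MEK inhibitor media were low. For Tnc, S100a6 and Csf1 the libraries labelled 2iL were lowest, and 2iL-F lay between LCDM and A2iL.

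The 2 groups with the same medium, 2iL-F and 2iL, differed for most members. Of the higher genes 80 (62.5%) were lower in 2iL-F than in 2iL and 23 higher. Of the lower genes 122 (58.7%) were higher in 2iL-F and 20 lower. Among the named genes tested, 29.3% were higher and 34.9% lower, and 61.7% of all genes tested were called. The medians were -0.38, 0.52 and -0.03, so by the medians 2iL-F lay nearer to serum than 2iL in both sets. Higher in 2iL-F were Tnc (6.56 ± 0.048 (SE, adjusted p = 4.5e-12)), Thy1 (5.71 ± 0.056 (SE, adjusted p = 2.1e-11)), Acta2 (5.29 ± 0.074 (SE, adjusted p = 2.0e-10)) and Isg15 (4.91 ± 0.097 (SE, adjusted p = 1.7e-09)). Lower in it were Cldn6 (-3.32 ± 0.131 (SE, adjusted p = 1.6e-07)), Ggt1 (-2.37 ± 0.088 (SE, adjusted p = 1.1e-07)), Krt18 (-2.01 ± 0.105 (SE, adjusted p = 8.1e-07)) and Extl1, a glycosyltransferase-like gene (-1.97 ± 0.088 (SE, adjusted p = 3.3e-07)). Fibroblast markers moved with this contrast, from 1028 to 1085 TPM in 2iL to 5272 to 5488 in 2iL-F, and their part in it was not tested.

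LCDM and A2iL, the media without PD0325901, differed by a smaller median for the higher than for the lower genes, though not in fewer calls. LCDM was above A2iL for 52 of 128 (40.6%) and below for 34 (26.6%), against 33.3% and 23.8% of the named genes tested and 54.0% of all genes called either way. Of the lower genes, 106 of 208 (51.0%) were lower in LCDM and 23 (11.1%) higher. The median difference was 0.09 for the higher and -0.33 for the lower genes, against 0.07 over all. Higher in LCDM were Fam81a (1.66 ± 0.095 (SE, adjusted p = 2.3e-06)), Itga3 (1.62 ± 0.074 (SE, adjusted p = 6.1e-07)), Cntfr (1.58 ± 0.092 (SE, adjusted p = 2.6e-06)) and Itpka, an inositol kinase (1.25 ± 0.091 (SE, adjusted p = 1.0e-05)). Lower in it were Isg15 (-3.35 ± 0.097 (SE, adjusted p = 5.0e-08)), Tnc (-3.08 ± 0.048 (SE, adjusted p = 3.0e-09)), Csf1 (-2.70 ± 0.049 (SE, adjusted p = 7.6e-09)) and Ifit1 (-2.51 ± 0.087 (SE, adjusted p = 1.3e-07)). The fibroblast sum was 4145 to 4205 TPM in A2iL and 1329 to 1335 in LCDM, and its part in this contrast was not tested. With median-of-ratios scaling, 47.6% of all genes called in this contrast were higher in LCDM, against 57.6% as reported.

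**Figure D4:**
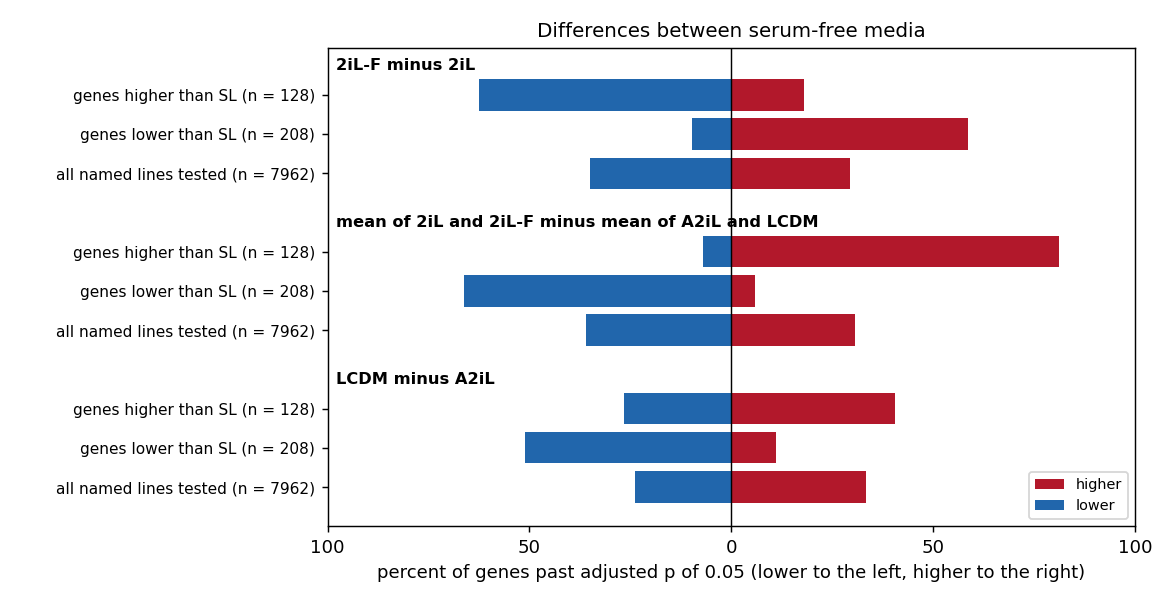
Bars give the percent of genes past an adjusted p of 0.05 in limma, lower to the left and higher to the right, for the named higher genes, the named lower genes and all named genes tested, in 3 contrasts among the serum-free media. In the contrast of the MEK inhibitor media, 81.2% of the higher genes lie to the right and 66.3% of the lower genes to the left. The lower genes include 42 that were under 1 TPM in all 8 serum-free libraries.

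Across the 4 media, 83 of the 128 higher genes had their highest mean in the libraries labelled 2iL (64.8%, against 31.6% of named genes tested), 31 in 2iL-F, 9 in LCDM and 5 in A2iL. Their lowest mean was in A2iL for 58 (45.3%, against 27.5%), LCDM for 42 (32.8%, against 16.3%), 2iL-F for 22 and 2iL for 6. The lower genes were lowest in 2iL in 152 of 208 cases (73.1%, against 32.6%) and highest in A2iL in 123 (59.1%, against 22.7%). A tie at 0 TPM counted as lowest in 2iL, as for Car4, and 31 of the 208 were at 0 in both 2iL libraries. The number of ties was not computed. By these counts A2iL was the serum-free medium most often nearest to serum in both sets, although every member stood at least 1 away from serum there. For the higher genes, LCDM and A2iL differed by a median of only 0.09, against 0.07 over all named genes tested.

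A few members reached nearly the same level in all media. Among genes of at least 5 TPM in some medium, the smallest spans of the serum-free means were 0.22 for Fbln1, 0.28 for Esrrb, 0.28 for Slc44a1 and 0.30 for Ddah2 in the higher set. In the lower set they were 0.19 for Tmem54, 0.20 for Wnt3, 0.22 for Ppbp and 0.23 for Kif5c, a kinesin motor with 7.56 and 7.15 TPM in SL and 2.20 to 2.92 in the serum-free libraries. Of these 8, Esrrb and Ddah2 passed the F test of a difference among media (adjusted p = 0.0048 and adjusted p = 0.0036).

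**Figure D5:**
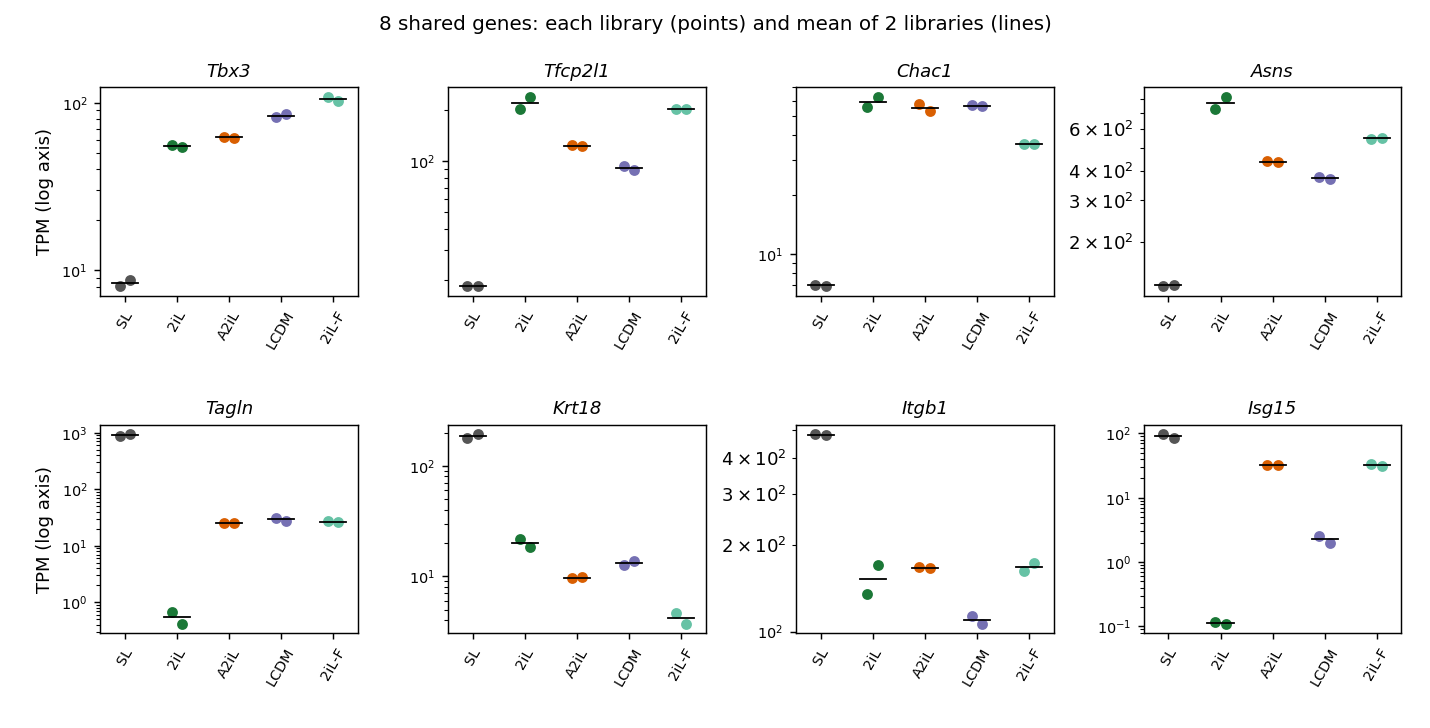
TPM on log axes for 8 shared genes, with a point for each library and a line at the mean of 2 libraries per medium. Tbx3, Tfcp2l1, Chac1 and Asns were higher in all 8 serum-free libraries than in both of SL, and Tagln, Krt18, Itgb1 and Isg15 were lower; Itgb1 ran from 106 to 173 TPM and Isg15 from 0.109 to 33.9 TPM in the serum-free libraries.

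Genes near the threshold show how the set ends. Just inside were Zyg11a, A2m and Mfsd13a in the higher set, each with a smallest difference of 1.01, and Chst11 (-1.002), Smpdl3b (-1.01) and Prmt2 (-1.01) in the lower. Just outside were Rhov, Abca7 and Calr4, at 0.9997, 0.9996 and 0.9963, and Lmo4 (-0.999), Ehbp1l1 (-0.99) and Nab2 (-0.99). Beyond the members, 1384 named genes were above SL and 1890 below it in all 8 libraries with at least 1 mean under the threshold. Identical values stood on neighbouring lines for 2 pairs of members, a symbol turned into a date with Gm4532, and Chst15 with Gm19463, so each pair may be 1 measurement.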

How the data were processed

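RNA-seq of 10 libraries from 5 culture conditions was analysed. The labels' protocols name a Qiagen kit for RNA and NEBNext Ultra for library preparation. The deposited values are TPM, and the submitters' processing notes name Bowtie2, RSEM, DESeq2, R 3.4.2 and mm10; versions of the other tools are not stated there. Symbols were checked against broadly expressed gene families: on the first 9865 lines 98.4% of 191 such genes had at least 5 TPM, and further down 51.6% of 64 on their own line and 87.5% on the line below.

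Values were used as log2(TPM + 1). The members and gene lists were chosen with earlier results of these data known, and the role groups after the values were seen. Lines with 1 TPM or more in at least 2 libraries (14578, of which 7962 can be named) entered a limma 3.58.1 fit under R 4.3.3 (a mean per medium, eBayes with trend, 5 residual degrees of freedom), with Benjamini-Hochberg adjustment over all lines tested, a threshold of 0.05 and two-sided tests. Contrasts were the serum-free mean against SL (10421 called, 71.5%), 2iL-F against 2iL (61.7%), the MEK inhibitor media against the others (63.9%), LCDM against A2iL (54.0%) and an F test over the 4 serum-free media (84.1%). Fits were tested on simulated data. Coordinates are those of mm10, GENCODE vM21, and promoters those of RefSeq. Genes were named in order of the smallest difference from SL (20 higher, 25 lower, at least 5 TPM in some medium, no predicted genes, clones or pseudogenes), then members of fixed lists, those at the threshold, extremes of each contrast and examples of roles. Members outside the role groups, and a few within them, are counted and mostly not reported here by name. Tables and figures used Python 3.11.15, numpy 2.4.6, pandas 2.3.3 and matplotlib 3.10.9. Alternatives were another pseudocount, threshold, scaling, fewer libraries, the replicate number as a block, and leaving out libraries singly.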

Additional observations from a re-analysis of the deposited data

Results flagged for a closer look

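Both 2iL and 2iL-F name the same medium, yet the effect relative to SL differed between them for some shared genes by more than the spread between libraries, by the limma contrast of 2iL-F with 2iL. Among the higher genes this difference was largest downward for Ggt1, at -2.37 on the log2(TPM + 1) scale, with 34.1 and 35.9 TPM in 2iL against 6.26 and 5.68 in 2iL-F. Extl1 differed by -1.97, with 14.4 and 14.5 TPM against 3.01 and 2.86. Among the lower genes Tnc differed by 6.56, with 0 and 0.0106 TPM in 2iL against 95.3 and 92.1 in 2iL-F. Thy1 differed by 5.71, with 0.293 and 0.413 TPM against 70.9 and 68.4. Tnc and Thy1 are on the fibroblast marker list.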

How the results depend on the processing

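The number of shared lines depended on the pseudocount and the threshold. With a pseudocount of 0.1 in place of 1, 447 lines were higher and 863 lower, against 231 and 395. With a threshold of 1.5 in place of 1, 90 were higher and 157 lower, and 48 and 82 of the named members met it. With median-of-ratios scaling 128 of the 128 named higher and 190 of the 208 named lower genes met the rule, and with quantile normalisation 127 and 187. Leaving out each library in turn gave 227 to 246 higher and 392 to 447 lower lines, and 111 and 187 named members met the rule every time. Without 2iL and 2iL-F, an alternative chosen after seeing the data, as was that without 2iL alone, 307 lines were higher and 510 lower. Calls among the media ranged, with each library left out, over 8970 to 10788 for the serum-free mean against SL (10421 with all), 7657 to 8821 for 2iL-F against 2iL (8995), 8408 to 9542 for the MEK inhibitor media (9314), 6300 to 8608 for LCDM against A2iL (7873) and 11584 to 12461 for the F test (12264). The replicate numbers 3 and 5 are not explained in the labels, and deviations of same-numbered libraries correlated at -0.131 to 0.075 over 10 pairs of media. With the replicate number as a block, the counts were 10314, 8858, 9136, 7604 and 12096 in the same order. No scaling tried moved the median of all genes by more than 0.1. Unknown depth limits values near 0 TPM.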

Other observations

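The other fixed lists held few or no genes that met the shared rule, and are given here by their calls in the serum-free mean against SL, where 33.7% of all named genes tested were higher and 40.7% lower. Of 21 tested genes of cholesterol synthesis and uptake, 17 were higher and 3 lower by limma, with a median of 0.77 on the log2 scale, and 0 were members. The list of germline genes silenced by DNA methylation had 8 of 13 higher and 2 lower, with a median of 0.60 and no member. Of 12 imprinted genes tested, 8 were lower and 1 higher, with a median of -0.65 and no member. The thyroid hormone list had 3 of 5 higher and 2 lower. In the glucocorticoid list 8 of 14 were higher and 3 lower, while its 1 member, Errfi1, was lower. Of 21 p53 targets 16 were lower and 3 higher, with Perp and Ccnd2 as members. In the BMP and Id list 3 of 13 were higher and 6 lower, with Bmp7 in the higher and Id2 in the lower set. The metal and iron list had 9 of 18 higher and 8 lower, with Slc40a1 as a member. Of 21 genes of the insulin and growth factor list 14 were lower and 2 higher, with Kit in the higher and Igfbp3 in the lower set. The DNA methylation list had 10 of 15 lower and 3 higher.

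Some shared genes are neighbours in the genome. Of 332 named members with coordinates, 46 stood in 25 pairs within 100000 bases, and 21 of the 25 pairs moved the same way. Lrrc34 and Lrriq4, and Zyx and Epha1, overlap. Pairs that were higher together included Klf15 and Aldh1l1, 11189 bases apart, Padi4 and Padi3, and Slc30a2 and Extl1. Pairs that were lower together included S100a4 and S100a6, Car3 and Car2, Gsto1 and Gsto2, and Tnfrsf12a and Cldn6, 1781 bases apart. The 4 opposite pairs were Fads1 and Myrf, Wfdc2 and Dbndd2, M1ap and Loxl3, and Pigyl and Cnn1, with the higher gene first in each. These pairs were chosen after their values were seen, and the share of neighbouring pairs among other genes was not computed.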
